A study of Mus musculus with 12 samples.

Results

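GW1516 alone was compared with vehicle in mouse quadriceps, a large and mainly fast-twitch thigh muscle, and the comparison used 6 of the 12 arrays of the study. It holds 3 GW1516 arrays, from C57Bl/6J mice given GW1516 at 5 mg/kg/day for 6 days, and 3 vehicle arrays, from mice of that strain given vehicle for the same 6 days. The members were taken from the array titles, which name the group and a replicate number from 1 to 3. The other 6 arrays, 3 of GW1516 at 5 mg/kg/day plus AICAR at 250 mg/kg/day and 3 of AICAR at 250 mg/kg/day, entered the estimate of the spread and a second comparison at the end. The RNA on each array was pooled from 3 mice, so differences between individual animals are not visible, and the labels do not say whether pools of a group shared mice. The p-values therefore measure the spread between these pools, which may be technical. The age and sex of the mice, the route of dosing and the vehicle are not stated in the sources.

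GW1516 is a synthetic agonist of PPARδ, a nuclear receptor encoded by Ppard. PPARδ binds DNA as a heterodimer with a retinoid X receptor, at elements built of a pair of AGGTCA-like sites 1 base apart, and recruits coactivators when a ligand is bound. In skeletal muscle it is known for raising genes that bring fatty acids into mitochondria, oxidise them, store them in lipid droplets and spare glucose. AICAR, a nucleoside that cells turn into an AMP mimic, switches on AMP-activated protein kinase.

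Levels are MAS5 signals, 1 value per probe set, on arrays scaled to a trimmed mean of 200. Signals of different genes are not comparable, since each probe set has its own response. Changes are differences of mean log2 signal, GW1516 minus vehicle, with the standard error of limma's fit (n = 3 against 3 arrays), and genes with an adjusted p below 0.05 are called. With 3 arrays a group, the number of arrays sets the precision, and a change had a median standard error of 0.19 log2 units. Skeletal muscle markers were high on every array. Their summed signals over 17 genes were 402080, 322127 and 337412 on GW1516 arrays 1 to 3 and 322375, 333192 and 326652 on vehicle arrays 1 to 3. All correlations between arrays lay from 0.947 to 0.968. Within the GW1516 group the second array stood farthest from the others: 823 of 12771 genes (6.44%) lay over 1 log2 unit from the mean of the other GW1516 arrays, against 644 and 669 for GW1516 arrays 1 and 3 and 558 to 580 for the vehicle arrays. The combination arrays deviated from their own group about as much, at 785 to 824 genes, and the AICAR arrays at 577 to 658. Results are therefore given per array, and with and without GW1516 array 2. In whole muscle, fewer cells of a type and less RNA per cell cannot be told apart.

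Of 12771 genes, 12 were called (0.094%), 10 higher (0.0783%) and 2 lower (0.0157%) in GW1516 muscle. Of the 10 higher genes, Acadl, Eci2, Mlycd, Ucp3, Plin4 and Lpin1 serve fatty acid oxidation, mitochondrial energy use or lipid storage and synthesis, and Fbp2 serves glucose synthesis. The others were Exosc5, Ptp4a3 and Tacc2, and the 2 lower genes were Col22a1 and Dkk3. The calls depended on single arrays. Limma called 0 genes without vehicle array 2 or without vehicle array 3, with 874 and 1053 at an unadjusted p under 0.05, and 6 without vehicle array 1. It called 7 without AICAR array 2 or without combination array 2 or 3, and 41 without GW1516 array 1. All 12 changes kept their sign in each of the 12 fits that left out 1 array. They could not do otherwise, since for each gene the GW1516 and vehicle arrays did not overlap. Of those 12 fits, Eci2 was called in 2, Tacc2 in 3, Dkk3 in 4, Mlycd and Ptp4a3 in 6, and the other called genes in 8 to 10.

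The promoter of Ucp3 is printed because Ucp3 had the largest called rise and was the 1 called gene whose promoter held a DR1 match, and that of Slc25a20 because this PPAR target was called when GW1516 was added to AICAR. The second was chosen after its values were seen. Each sequence runs 5′ to 3′ on the strand of the gene, from 250 bases before to 50 bases after the start of the transcript, from RefSeq on build GRCm38.p6. Capitals mark matches to the half-site AGGTCA, or to DR1, AGGTCANAGGTCA, with at most 2 mismatches in its fixed bases. Both strands were searched.
Ucp3, chr7:100472741-100473040, + strand: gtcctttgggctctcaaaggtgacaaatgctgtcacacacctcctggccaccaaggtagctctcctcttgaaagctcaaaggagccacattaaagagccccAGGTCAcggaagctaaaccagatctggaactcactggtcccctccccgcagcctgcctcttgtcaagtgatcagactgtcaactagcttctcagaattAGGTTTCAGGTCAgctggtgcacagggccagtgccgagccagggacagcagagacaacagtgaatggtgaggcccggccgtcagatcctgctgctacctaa
Slc25a20, chr9:108661886-108662185, + strand: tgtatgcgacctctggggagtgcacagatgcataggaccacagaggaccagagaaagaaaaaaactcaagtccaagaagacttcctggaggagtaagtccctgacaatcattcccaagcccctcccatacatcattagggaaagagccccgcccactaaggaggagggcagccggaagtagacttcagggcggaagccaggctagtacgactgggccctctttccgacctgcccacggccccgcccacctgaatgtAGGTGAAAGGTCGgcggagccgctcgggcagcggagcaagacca
The Ucp3 promoter held a DR1 match with 2 mismatches that begins 51 bases before the start, and half-sites 149 and 44 bases before it, the nearer of which is the second site of the DR1. The Slc25a20 promoter held a DR1 match with 2 mismatches that begins 6 bases after the start. Of the 12 called genes, 9 had an entry in the table, with 10 promoters. Of these, 2 held a half-site, those of Ucp3 and Lpin1, where it lay 74 bases before the start, 1 held DR1 with at most 2 mismatches and 0 held an exact DR1. Among the 13242 promoters of genes tested, 13.1% held a half-site, 2.96% held DR1 with at most 2 mismatches and 0.0227% held an exact DR1. A match describes these letters and says nothing of binding.

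The receptor genes and their cofactors came first by role. Of 23 PPAR, retinoid X receptor, coactivator and corepressor genes tested, 0 were called by limma, and the median change was 0.07, beside -0.01 over all genes. At an unadjusted p under 0.05, 2 were higher and 0 lower, where 9.64% of all genes passed, 4.48% higher and 5.16% lower. Ppard itself had signals of 293, 412 and 280.2 on the GW1516 arrays, against 254, 245 and 247 on the vehicle arrays. The 3 GW1516 arrays lay above the 3 vehicle arrays, with array 2 the highest, but the change of 0.38 ± 0.16 did not pass (limma, adjusted p = 0.49), and it was 0.21 without GW1516 array 2. Rxra, the retinoid X receptor alpha gene, differed by 0.24 ± 0.091 and Ppargc1a, whose product is the PGC-1α coactivator, by 0.07 ± 0.10, neither called. Ppara differed by 0.11 ± 0.35. Pparg, the fat cell PPAR, had signals of 94.8, 32.1 and 105 on the GW1516 arrays and 46.8, 39.5 and 26.6 on the vehicle arrays, and the groups overlapped.

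The PPAR target genes lay mostly on the higher side. The list held 39 genes, of which 33 were named on the array and 30 passed the filter on dim probe sets. Of the 30, 4 were called higher (Ucp3, Acadl, Mlycd and Plin4), against 0.0783% of all genes, and 0 were called lower. In all, 27 lay above 0, against 47.1% of all genes, and the median change was 0.41, beside -0.01 over all genes. In 13 the 3 GW1516 arrays lay above the 3 vehicle arrays, and in 0 below, against 6.30% and 7.91% of all genes. Array by array, the list's median difference from the vehicle mean was 0.50, 0.49 and 0.41 on GW1516 arrays 1 to 3, against 0.11, -0.001 and -0.11 on vehicle arrays 1 to 3. Without GW1516 array 2 the median was 0.40, with 29 of 30 above 0 and 5 called. Since well-known PPAR targets were listed with earlier results of these data known, these counts are descriptions. Acot1, Cyp4a14 and Fgf21 fell below the filter.

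**Figure D1:**
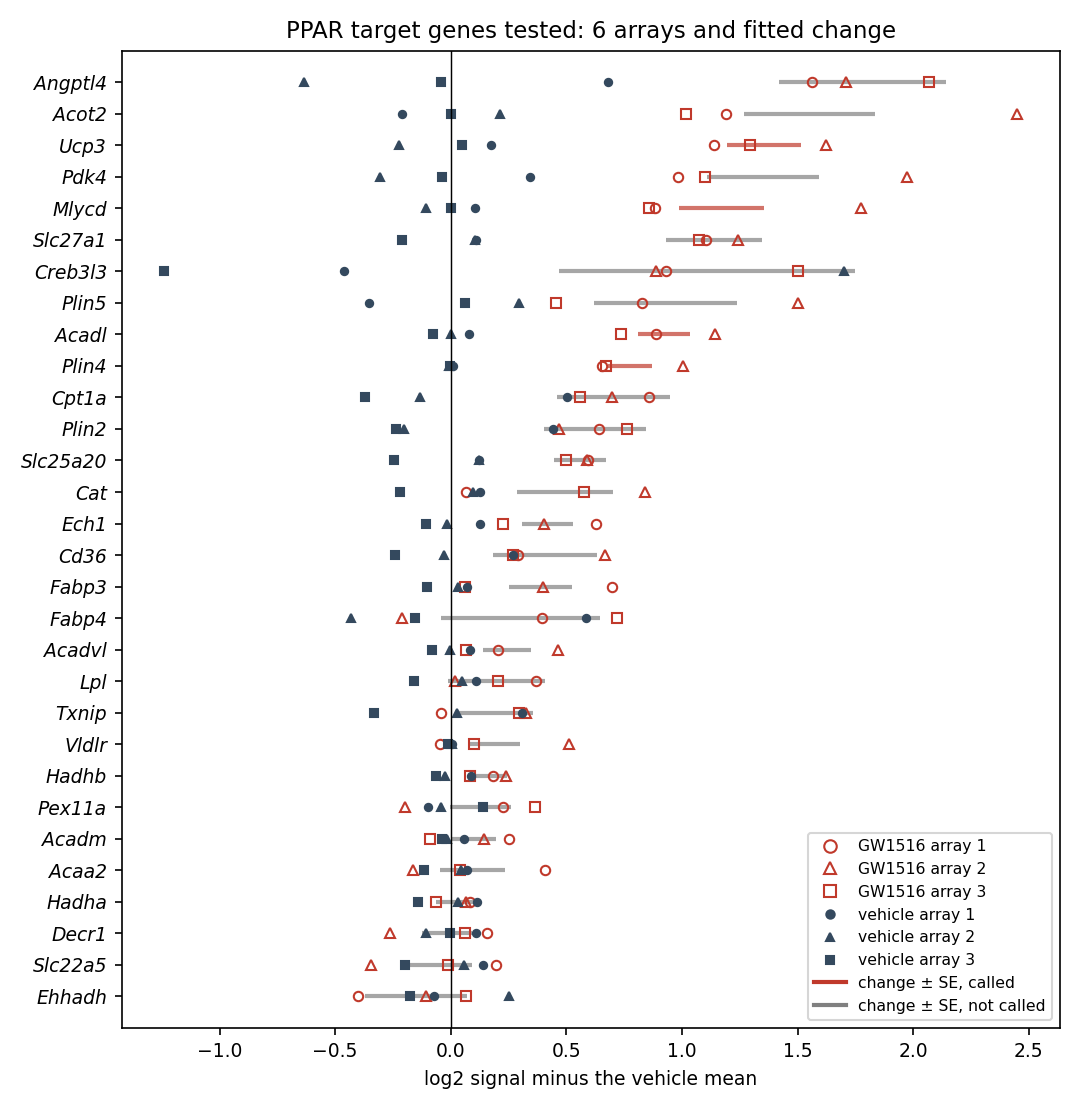
PPAR target genes by array. Each row is a gene tested, the x axis is the log2 signal minus the mean log2 signal of the vehicle arrays, open red symbols are GW1516 arrays and filled dark symbols vehicle arrays (circles array 1, triangles array 2, squares array 3), and bars span the fitted change ± 1 SE, red where called. Of 30 genes, 27 have a change above 0 and 4 were called.

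Fatty acid uptake and its regulators held large differences that stayed short of the threshold. Angptl4, which encodes a secreted inhibitor of lipoprotein lipase, had signals of 326, 361 and 462 on the GW1516 arrays, against 177, 71 and 107 on the vehicle arrays. The groups did not overlap, but the vehicle arrays spread widely and the change of 1.78 ± 0.36 was not called (limma, adjusted p = 0.136). Of the 12 fits that left out 1 array it was called in 1, that without AICAR array 1 (adjusted p = 0.0325). Slc27a1, a fatty acid transport protein of muscle, had signals of 777, 855 and 761 on the GW1516 arrays, against 390.2, 389 and 313 on the vehicle arrays. The GW1516 arrays lay close together and all above vehicle, with a change of 1.14 ± 0.21 that was not called (adjusted p = 0.0729). Slc27a1 was called in 2 of those 12 fits, without AICAR array 1 (adjusted p = 0.0379) and without combination array 1 (adjusted p = 0.0322). Other uptake genes differed less: the fatty acid translocase gene Cd36 by 0.41 ± 0.23, the muscle fatty acid binding protein gene Fabp3 by 0.39 ± 0.14 and the lipoprotein lipase gene Lpl by 0.20 ± 0.21. Of 16 genes of lipoprotein lipolysis, uptake and activation, 0 were called, 3 were higher and 0 lower at an unadjusted p under 0.05, and the median was 0.09.

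Entry of fatty acids into mitochondria runs through the carnitine shuttle, which malonyl-CoA inhibits. Mlycd encodes malonyl-CoA decarboxylase, which removes that inhibitor. Its signals were 1435, 2664 and 1412 on the GW1516 arrays, against 836, 723 and 779.7 on the vehicle arrays. Array 2 was much the highest, arrays 1 and 3 were nearly equal, and all lay above vehicle. Mlycd rose by 1.17 ± 0.18 (limma, adjusted p = 0.0267), and without GW1516 array 2 by 0.87 (adjusted p = 0.00157). Slc25a20, the carnitine-acylcarnitine carrier, had 1549, 1542 and 1450.4 on the GW1516 arrays and 1116, 1118 and 867 on the vehicle arrays, a difference of 0.56 ± 0.11 that was not called (adjusted p = 0.136). Crat, carnitine acetyltransferase, differed by 0.30 ± 0.077, Cpt1a, the liver form of the outer transferase, by 0.70 ± 0.24, and Acacb, whose enzyme makes malonyl-CoA at the mitochondrion, by 0.48 ± 0.12. In each of these 4 genes the GW1516 arrays lay above the vehicle arrays and none was called. The shuttle and malonyl-CoA list held 5 such genes among 8 tested, against 6.3% of all genes. It held 0 with all GW1516 arrays below, against 7.91%. Of 8 genes of the shuttle and of malonyl-CoA turnover, 7 lay above 0, against 47.1% of all genes, and 1 was called higher, against 0.0783%, with a median of 0.39, and of 0.42 without GW1516 array 2.

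Within the mitochondrial beta-oxidation spiral the changes were uneven. Acadl, the long-chain acyl-CoA dehydrogenase, had signals of 5134, 6116 and 4609 on the GW1516 arrays, against 2926, 2773 and 2625 on the vehicle arrays. The lowest GW1516 array stood well above the highest vehicle array, and Acadl rose by 0.92 ± 0.11 (limma, adjusted p = 0.00583), or 0.81 without GW1516 array 2. Eci2, an enoyl-CoA isomerase for unsaturated fatty acids, had 1235, 1530.0 and 1160.4 on the GW1516 arrays, against 872, 906 and 792 on the vehicle arrays. It rose by 0.60 ± 0.10 (adjusted p = 0.0422), and without GW1516 array 2 the change of 0.49 was no longer called (adjusted p = 0.0581). Neighbouring enzymes differed less and none was called. Acadm, the medium-chain dehydrogenase, differed by 0.10 ± 0.095, Acadvl, the very-long-chain one, by 0.24 ± 0.10, the trifunctional protein genes Hadha and Hadhb by 0.03 ± 0.092 and 0.17 ± 0.075, and Decr1, a dienoyl-CoA reductase, by -0.01 ± 0.11. Of 20 genes of the spiral, 2 were called higher, against 0.0783% of all genes, 15 lay above 0, against 47.1%, and the median was 0.13. Acot2, a mitochondrial acyl-CoA thioesterase, had 451, 1079 and 400.0 on the GW1516 arrays, against 171, 229 and 198 on the vehicle arrays, with array 2 well above the others. Its change of 1.55 ± 0.28 was not called (adjusted p = 0.0729), and without GW1516 array 2, at 1.10, it was (adjusted p = 0.0308). Acot2 belongs to a family of near-identical copies, so the probe set may also read its relatives. Of the 15 genes tested of a peroxisomal list 0 were called, with 1 higher and 0 lower at an unadjusted p under 0.05 and a median of 0.08. Eci2 was counted with the mitochondrial list and not with this one.

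Ucp3 encodes an uncoupling protein of the muscle mitochondrial membrane. Its signals were 2301, 3218 and 2559 on the GW1516 arrays, against 1178, 895 and 1079 on the vehicle arrays. The groups were far apart on every array, with array 2 the highest. Ucp3 had the largest called change, a rise of 1.35 ± 0.16, or 2.55-fold (limma, adjusted p = 0.00583), and it rose by 1.22 without GW1516 array 2.

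**Figure D2:**
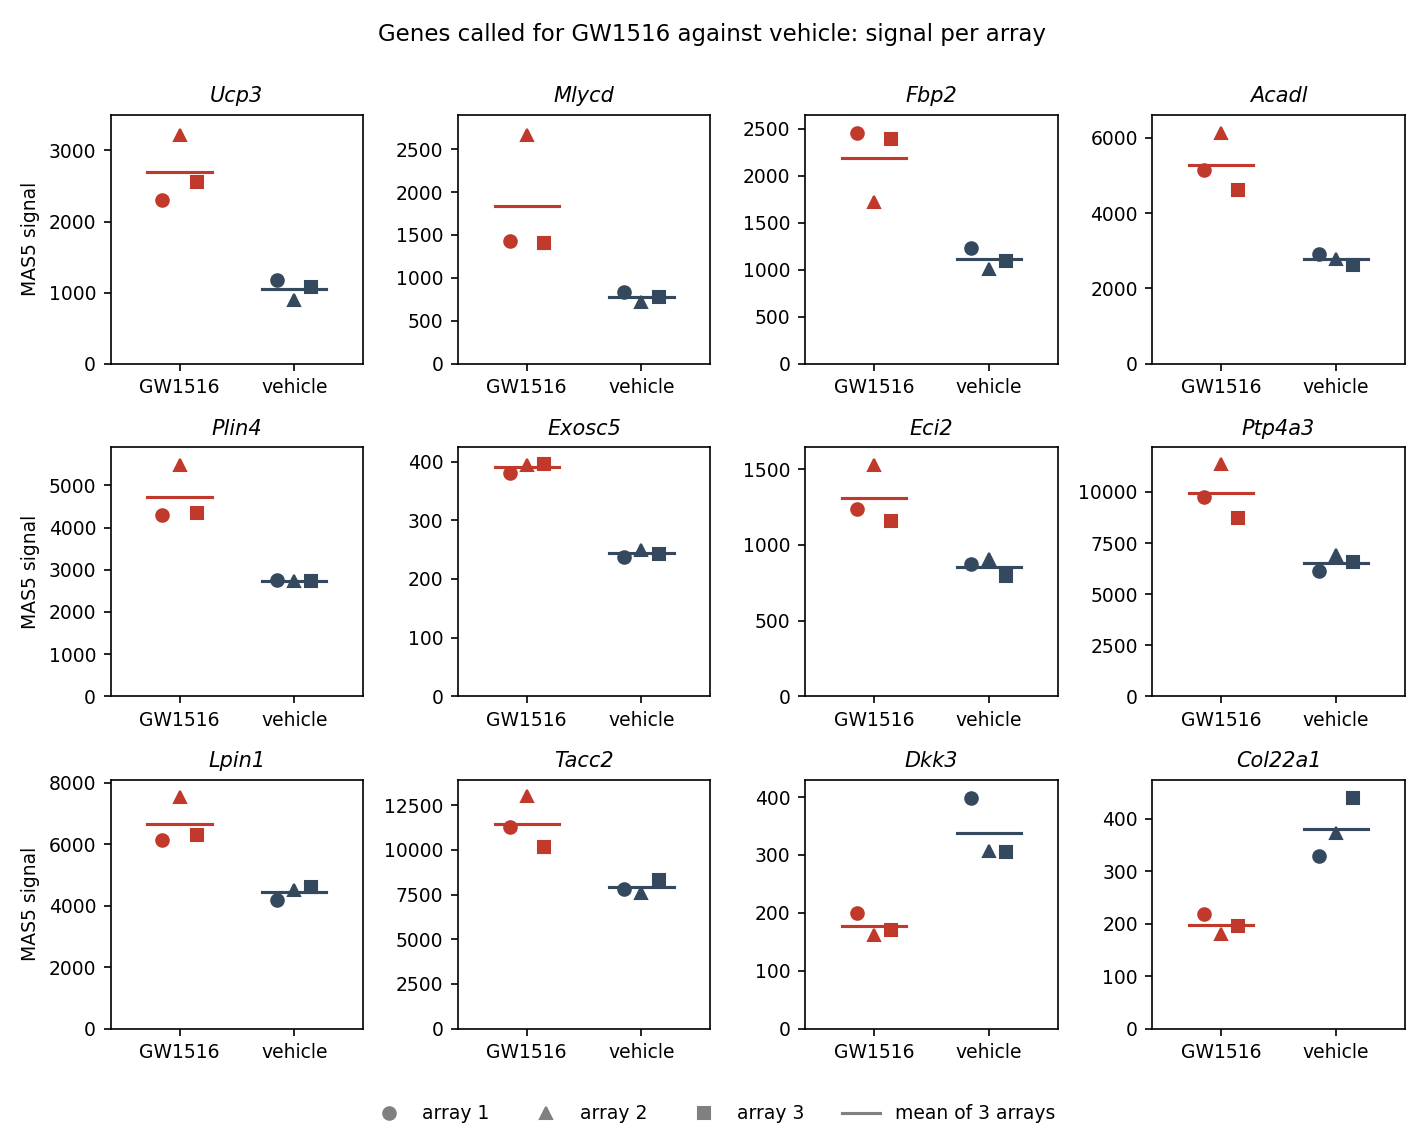
Signals of called genes by array. Each panel is a gene, the y axis is the MAS5 signal on a linear scale from 0, points are arrays with GW1516 left and vehicle right (circles array 1, triangles array 2, squares array 3), and lines are means of 3 arrays. Array 2 is the highest GW1516 array in 8 of the 10 genes that rose and the lowest in Fbp2.

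Lipid droplet genes lay mostly above 0 and varied between the GW1516 arrays. Plin4, a protein that coats lipid droplets, had signals of 4310.3, 5488 and 4357 on the GW1516 arrays, against 2761, 2726 and 2731 on the vehicle arrays, which were nearly equal. Plin4 rose by 0.78 ± 0.097 (limma, adjusted p = 0.00583), or 0.66 without GW1516 array 2. Plin2 and Plin5, droplet proteins of the same family, differed by 0.62 ± 0.22 and 0.93 ± 0.31 with no overlap between groups, and neither was called. Pnpla2, the gene of adipose triglyceride lipase, had 2619.7, 5667 and 3156 on the GW1516 arrays and 2342, 2087 and 2246 on the vehicle arrays, and its difference of 0.70 ± 0.22 was 0.37 without GW1516 array 2. Of 15 droplet and lipolysis genes 1 was called higher, against 0.0783% of all genes, and 12 lay above 0, against 47.1%, with a median of 0.55. By array the list's median difference from the vehicle mean was 0.40, 0.19 and 0.59 on GW1516 arrays 1 to 3, lowest on array 2.

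Fat cells also express many of these genes, and fat cell markers varied between pools. The summed signal of 15 adipocyte markers was 32371, 22329 and 39238 on GW1516 arrays 1 to 3 and 32941, 23441 and 25759 on vehicle arrays 1 to 3, so the groups overlapped. Of the 15 markers, 14 lay above 0, 0 were called and 0 had an unadjusted p under 0.05 in either direction. The list's median was 0.60, and 0.90 without GW1516 array 2. Car3 had the highest mean log2 signal of the markers. Fabp4, which is on the PPAR target list as well, had 6561, 4306 and 8206 on the GW1516 arrays. On the vehicle arrays it had 7482, 3699 and 4483, and the groups overlapped. Retn, the resistin gene, had 616, 499.5 and 964 on the GW1516 arrays and 533, 357 and 368 on the vehicle arrays. Plin4 was highest on GW1516 array 2, where the adipocyte sum was the lowest of the 6 arrays. Cidec and Lipe, which are on both the droplet and the adipocyte lists, were lowest among the GW1516 arrays on array 2, at 297 and 454. The droplet and lipid synthesis lists moved with the adipocyte markers across the GW1516 arrays, all lowest on array 2 and highest on array 3. For lipid synthesis the median difference from the vehicle mean was 0.47, -0.25 and 0.58 on GW1516 arrays 1 to 3, where the adipocyte list stood at 0.60, 0.02 and 1.11. GW1516 array 2 also differed in other groups of genes, as given below. The part of fat cells in the Plin4, droplet and lipid synthesis results was not tested. Of 21 lipid synthesis genes 1 was called higher, Lpin1, against 0.0783% of all genes, and 18 lay above 0, against 47.1%. The list's median was 0.27, or 0.49 without GW1516 array 2. Lpin1 encodes a phosphatidate phosphatase that also acts as a nuclear coactivator. It had 6154, 7551 and 6301 on the GW1516 arrays, against 4195, 4498 and 4616 on the vehicle arrays. Its highest GW1516 value was on array 2, and it rose by 0.58 ± 0.084 (limma, adjusted p = 0.015).

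Genes at the switch between glucose and fat use differed unevenly, and Pdk4 had the smallest p of those tested. Pdk4, a kinase that shuts off pyruvate dehydrogenase, had signals of 5172, 10276 and 5612 on the GW1516 arrays, against 3319.8, 2119.9 and 2554 on the vehicle arrays. All GW1516 arrays lay above all vehicle arrays, array 2 far above the others, and the change of 1.35 ± 0.24 was not called (limma, adjusted p = 0.0712). Without GW1516 array 2 it was 1.04, still not called. Of the 12 fits that left out 1 array Pdk4 was called in 1. That fit, without GW1516 array 1, kept GW1516 arrays 2 and 3 and gave 1.54 (adjusted p = 0.0285). The subunit and activator genes of pyruvate dehydrogenase with the smallest p lay on the lower side, none called. Dlat differed by -0.26 ± 0.088, Pdhx by -0.23 ± 0.086 and the phosphatase gene Pdp1 by -0.46 ± 0.12. Without GW1516 array 2 these were -0.18, -0.21 and -0.40. Of the 12 genes of this switch tested, 0 were called, and 1 was higher and 3 were lower at an unadjusted p under 0.05. In all, 4 lay above 0, against 47.1% of all genes, and the list's median was -0.09. Pdk3, another kinase of the family, fell below the filter on dim probe sets and was not tested. It had 23.6, 18.7 and 19.8 on the GW1516 arrays and 3.4, 3.2 and 3.0 on the vehicle arrays.

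Fbp2, the muscle fructose-1,6-bisphosphatase, runs a step of glycolysis backwards. It had signals of 2448, 1717 and 2386 on the GW1516 arrays, against 1228, 1010.4 and 1096 on the vehicle arrays. Here array 2 was the lowest GW1516 array, the opposite of the other metabolic genes that rose. Fbp2 rose by 0.96 ± 0.13 (limma, adjusted p = 0.00779), and by 1.13 without GW1516 array 2 (adjusted p = 0.000255). Pfkfb3, whose enzyme makes the glycolysis activator fructose-2,6-bisphosphate and with it an inhibitor of fructose bisphosphatase, had 2122, 1906 and 1342 on the GW1516 arrays, against 3954, 3226 and 3151 on the vehicle arrays. The groups did not overlap and the difference of -0.96 ± 0.22 was not called (adjusted p = 0.229), and its other probe set gave -0.47. The glucose transporter gene Slc2a4 differed by 0.12 ± 0.074. Of 24 glycolysis and gluconeogenesis genes, 12 lay above 0 and 12 below, where 47.1% of all genes lay above 0. Fbp2 was the 1 called, where 0.0783% of all genes were called higher. Array 2 was the lowest GW1516 array in 16, against 43.0% of all genes. Without it 17 of the 24 lay above 0, and the list's median was 0.11 in place of -0.01.

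The remaining called genes have no place in these pathways. Exosc5, a subunit of the RNA exosome, had 380.3, 394 and 396 on the GW1516 arrays, against 238, 249.6 and 243 on the vehicle arrays, and rose by 0.68 ± 0.10 (limma, adjusted p = 0.0178). Ptp4a3, a protein tyrosine phosphatase, had 9774, 11352 and 8735 on the GW1516 arrays, against 6156, 6904 and 6549 on the vehicle arrays, and rose by 0.60 ± 0.096 (adjusted p = 0.0294), while its second probe set gave 0.32. Tacc2, a coiled-coil protein of the centrosome, had 11263, 12995 and 10146 on the GW1516 arrays, against 7797, 7598 and 8316 on the vehicle arrays, and rose by 0.53 ± 0.089 (adjusted p = 0.0407). In each of these 3 genes all GW1516 arrays lay above all vehicle arrays.

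Both called falls were of genes whose products are secreted. Col22a1, a collagen of tissue junctions, had 218, 181 and 196 on the GW1516 arrays, against 328, 372 and 439 on the vehicle arrays. It fell by 0.93 ± 0.13 (limma, adjusted p = 0.0141), with array 2 lowest, but its other probe sets stood at -0.28 and 0.09, so the fall rests on 1 of its 3 probe sets. Dkk3, a secreted Dickkopf-family protein, had 200.3, 162 and 171 on the GW1516 arrays, against 398, 308 and 306 on the vehicle arrays. It fell by 0.92 ± 0.15 (adjusted p = 0.0294), and without GW1516 array 2 the change of -0.85 was not called (adjusted p = 0.112). Beside these, matrix genes were low on GW1516 array 2: the summed signal of 27 fibroblast and matrix genes was 48346, 25231 and 51866 on GW1516 arrays 1 to 3 and 50789.5, 58589.7 and 45543 on vehicle arrays 1 to 3. Without that array the changes were -0.87 for Col22a1 and -0.85 for Dkk3. When GW1516 was added to AICAR they were -0.465 and -0.659, where the matrix list's median was -0.30. The part of matrix cells in both falls was not tested.

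Short of the threshold and with no overlap between groups, Nptn, a cell adhesion protein of the immunoglobulin family, differed by -0.52 ± 0.096 (limma, adjusted p = 0.073). Tiam1, an activator of the small GTPase Rac, had 317, 179 and 348 on the GW1516 arrays, against 545, 537 and 582 on the vehicle arrays, a difference of -1.04 ± 0.19 (adjusted p = 0.0744). Without GW1516 array 2 it was called, at -0.74 (adjusted p = 0.0344). Cntfr, the receptor for ciliary neurotrophic factor, differed by -1.17 ± 0.25, the translesion polymerase gene Polh by -0.73 ± 0.15, Chkb, a choline kinase, by 0.59 ± 0.13, and Nfe2l1, a transcription factor of proteasome genes, by 0.38 ± 0.077. When GW1516 was added to AICAR, Cntfr and Polh differed the other way, by 0.66 ± 0.25 and 0.34 ± 0.15, neither called. Nptn, Tiam1, Chkb and Nfe2l1 kept their sign there.

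Fibre type genes showed 0 calls in either class. Of 17 fast-twitch genes, 12 lay above 0 with a median of 0.11, which was -0.01 with quantile normalization, and 2 were higher at an unadjusted p under 0.05. Of 15 slow-twitch genes, 7 lay above 0 and 0 had an unadjusted p under 0.05. Some slow-twitch genes gave low signals: Tnni1, slow troponin I, had 15.1, 38.4 and 68.3 on the GW1516 arrays and 91.1, 55.6 and 84 on the vehicle arrays, and Myh7, the slow myosin heavy chain, fell below the filter. The fast myosin gene Myh4 had 32005, 24927 and 26239.5 on the GW1516 arrays and 23260.0, 25338 and 23937 on the vehicle arrays, with a difference of 0.19 ± 0.087.

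GW1516 array 2 differed from the other GW1516 arrays in whole groups of genes, and the examples were chosen with its values in view. Atrophy ubiquitin ligase genes were among those with wide gaps. Fbxo32, which encodes atrogin-1, had signals of 1507, 11253 and 2607 on the GW1516 arrays, against 1995, 1839 and 1574 on the vehicle arrays. Trim63, which encodes MuRF1, had 2209, 10734 and 2978 on the GW1516 arrays, against 2319, 2288 and 2149 on the vehicle arrays. Arrays 1 and 3 lay in or near the vehicle range and array 2 stood several times above it. The changes of 0.98 ± 0.48 for Fbxo32 and 0.88 ± 0.38 for Trim63 were not called, and were 0.14 and 0.19 without array 2. Eif4ebp1, a brake on translation, stood at 5706 on array 2, with 1243 and 1491 on GW1516 arrays 1 and 3.

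Array 2 was above both other GW1516 arrays in 26 of 27 FOXO and atrophy genes, against 31.3% of all genes. The list's median difference from the vehicle mean was 0.10, 0.93 and 0.22 on GW1516 arrays 1 to 3, and its median change of 0.38 was 0.14 without array 2. Of the 27 genes 0 were called by limma and 14 were higher at an unadjusted p under 0.05. Foxo1, the transcription factor of this programme, differed on more than array 2: its signals were 307, 660.2 and 532 on the GW1516 arrays, against 262, 254 and 276 on the vehicle arrays. Its change was 0.85 ± 0.20 (adjusted p = 0.252), or 0.61 without array 2, called in neither. Of the 12 fits that left out 1 array Foxo1 was called in 1. That fit, without GW1516 array 1, kept GW1516 arrays 2 and 3 and gave 1.17 (adjusted p = 0.00678).

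Glucocorticoid-responsive genes had their highest list median on the same array, 0.90, with 0.21 on array 1 and 0.29 on array 3. Fkbp5, a cochaperone of the glucocorticoid receptor, had 525, 2036 and 1005 on the GW1516 arrays, against 380.5, 478 and 475 on the vehicle arrays. Mt1, a metallothionein, had 807, 2999.5 and 1122 on the GW1516 arrays, against 525, 611 and 673 on the vehicle arrays, and its other probe set gave a smaller difference, 0.41 in place of 1.22. Zbtb16, a zinc finger transcription factor, had 957, 1816 and 1260.5 on the GW1516 arrays, against 744, 835 and 825 on the vehicle arrays, and its probe sets gave differences from 0.24 to 0.70. In these 3 genes arrays 1 and 3 also lay above all vehicle arrays, and 0 of the 16 genes tested were called by limma, with 9 higher at an unadjusted p under 0.05. Fkbp5, Mt1 and Zbtb16 were each called in 1 of the 12 fits that left out 1 array. That fit, without GW1516 array 1, kept GW1516 arrays 2 and 3 and gave 1.69, 1.61 and 0.92.

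The proteasome genes stood together on array 2. All 31 subunit genes tested were higher there than on arrays 1 and 3, with list medians of 0.07, 0.49 and 0.07 on GW1516 arrays 1 to 3. Psmd2, a subunit of the regulatory cap, had 4582, 8097 and 5588 on the GW1516 arrays, against 4424, 4400.0 and 4114 on the vehicle arrays. Of the 31 genes 0 were called and 15 were higher at an unadjusted p under 0.05, and the median change of 0.23 was 0.07 without array 2.

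In the other direction, 55 of 57 oxidative phosphorylation genes were lowest on array 2 among the GW1516 arrays, against 43.0% of all genes. Their median differences were 0.13, -0.28 and -0.13 on GW1516 arrays 1 to 3, so arrays 1 and 3 stood on either side of vehicle. Ndufs1, a core subunit of complex I, had 5459.6, 4079 and 4719 on the GW1516 arrays, against 5587, 5752 and 5433 on the vehicle arrays. Tricarboxylic acid cycle genes were lowest there in 14 of 17. None of the 57 or 17 genes was called by limma, with 3 and 0 lower at an unadjusted p under 0.05, and the medians of -0.10 and -0.06 were -0.01 and 0.01 without array 2. Matrix genes were lowest on array 2 in 25 of 27, and Col1a1, type I collagen, had 4565, 1241 and 4641 on the GW1516 arrays, against 5123, 6829.9 and 4328 on the vehicle arrays. The matrix list's median of -0.40 was -0.03 without array 2. When GW1516 was added to AICAR, on arrays that do not include array 2, the median was -0.30. There 3 of 27 lay above 0, against 46.9% of all genes.

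**Figure D3:**
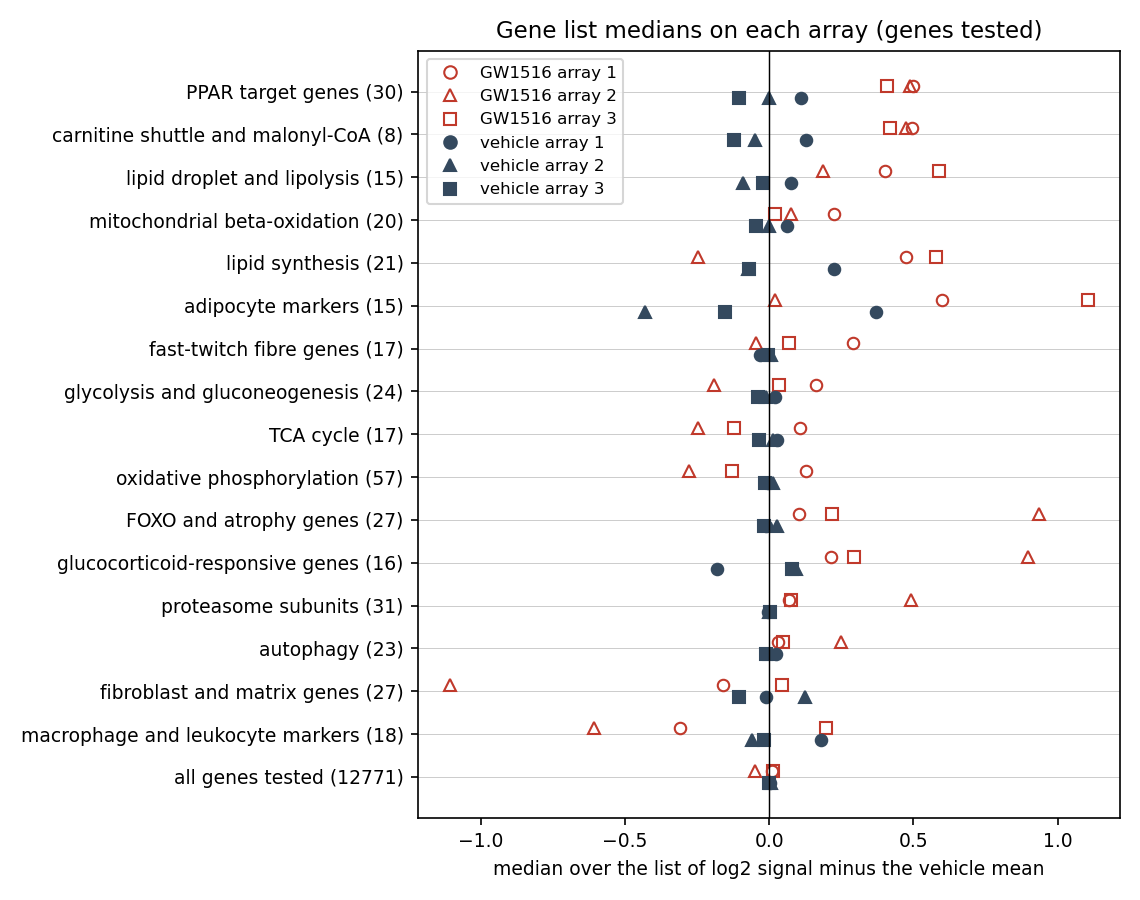
Gene lists by array. Each row is a list, the x axis is the median over its members of the log2 signal minus the vehicle mean, open red symbols are GW1516 arrays and filled dark symbols vehicle arrays (circles array 1, triangles array 2, squares array 3). For PPAR targets the 3 GW1516 arrays lie at 0.50, 0.49 and 0.41, while for FOXO and atrophy genes array 2 stands at 0.93 with the others at 0.10 and 0.22.

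**Figure D4:**
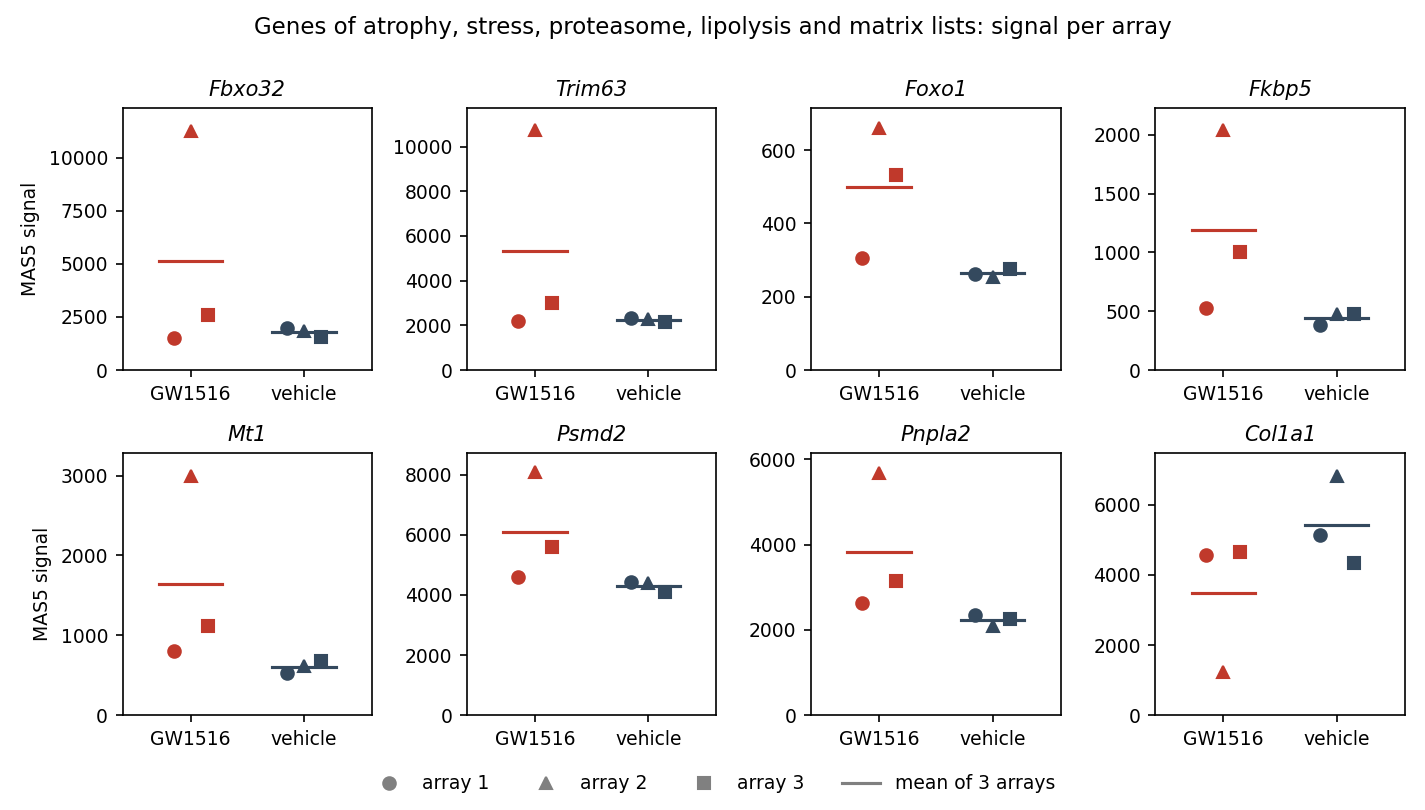
Genes that set GW1516 array 2 apart. Each panel is a gene, the y axis is the MAS5 signal on a linear scale from 0, points are arrays with GW1516 left and vehicle right (triangles are array 2 of each group), and lines are means of 3 arrays. Fbxo32 reaches 11253 on array 2, with 1507 and 2607 on the other GW1516 arrays.

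The called genes were also read against this array. Array 2 was the highest GW1516 array in 8 of the 10 genes that rose, against 31.3% of all genes, and the lowest in both genes that fell, against 43.0% of all genes. Without it, 12 genes were called (0.094%), 10 of them shared: 9 of the 10 rises and 1 of the 2 falls. Eci2 and Dkk3 were lost, and Acot2 and Tiam1 came in. All 12 changes kept their sign without it, which was fixed because the GW1516 and vehicle arrays of these genes did not overlap. The Gapdh control probe sets, whose signal at the 3′ end over that at the 5′ end tracks RNA integrity, gave a ratio of 0.863 on array 2, with 0.838 to 0.854 on the other GW1516 arrays and 0.802 to 0.842 on the vehicle arrays. The Actb ratio was 0.839 on array 2, between the 0.782 and 0.847 of the other GW1516 arrays and below the 0.855 to 0.936 of the vehicle arrays.

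GW1516 was also given on top of AICAR, and the comparison of the 3 arrays of the combination with the 3 AICAR arrays shares no array with the first. It called 4 genes (0.0313%), all higher: Fbp2, Ucp3, Acadl and Slc25a20. Fbp2 had 2622, 2982 and 2661 on the combination arrays, against 1241, 1254 and 1094 on the AICAR arrays, and rose by 1.20 ± 0.13 (limma, adjusted p = 0.00217). Ucp3 had 2722, 2854 and 3050.1 on the combination arrays, against 1417, 1757 and 1091 on the AICAR arrays, and rose by 1.04 ± 0.16 (adjusted p = 0.0461). Acadl rose by 0.75 ± 0.11 (adjusted p = 0.0461). The groups did not overlap for any of these genes, nor for Slc25a20. With 1 array left out the count lay between 1 and 10, the highest without GW1516 array 2, which enters through the shared spread.

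Slc25a20 had 1599, 1619.8 and 2043 on the combination arrays, against 935, 993 and 999 on the AICAR arrays, and rose by 0.84 ± 0.11 (limma, adjusted p = 0.0229). Of the 12 genes called for GW1516 alone, 11 had the same sign here, where 46.9% of all genes lay above 0. In 10 the groups did not overlap in the same direction, against 6.80% of all genes on the higher side and 7.68% on the lower. For the PPAR target list the median change was 0.36, and 26 of 30 genes lay above 0, beside 0.41 and 27 for GW1516 alone. For the droplet list it was 0.08, with 9 of 15 above 0, beside 0.55 and 12 for GW1516 alone.

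Some genes that rose with GW1516 alone had smaller differences on AICAR. Lpin1 had 5787, 5802 and 6015 on the combination arrays and 6013, 5886 and 5409 on the AICAR arrays, a difference of 0.03 ± 0.084. Exosc5 differed by -0.01 ± 0.10 and Plin4 by 0.25 ± 0.097, none called, though for Plin4 the groups did not overlap. Mean log2 signals of Lpin1, Exosc5 and Plin4 were 12.49, 8.2 and 12.05 on the AICAR arrays. On the vehicle arrays they were 12.11, 7.93 and 11.42. The differences between both settings were tested as an interaction, the change on AICAR minus the change alone, and limma called 0 genes, with 848 at an unadjusted p under 0.05 and a smallest adjusted p of 0.703. For Exosc5 the interaction was -0.69 ± 0.14 and for Lpin1 -0.56 ± 0.12, both at that adjusted p, so neither passed. The adipocyte list, at 0.60 for GW1516 alone, stood at -0.32 here with 1 of 15 above 0, and atrophy and proteasome lists stood at -0.05 and 0.02. The matrix list, at -0.40 for GW1516 alone, stood at -0.30 here with 3 of 27 above 0.

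**Figure D5:**
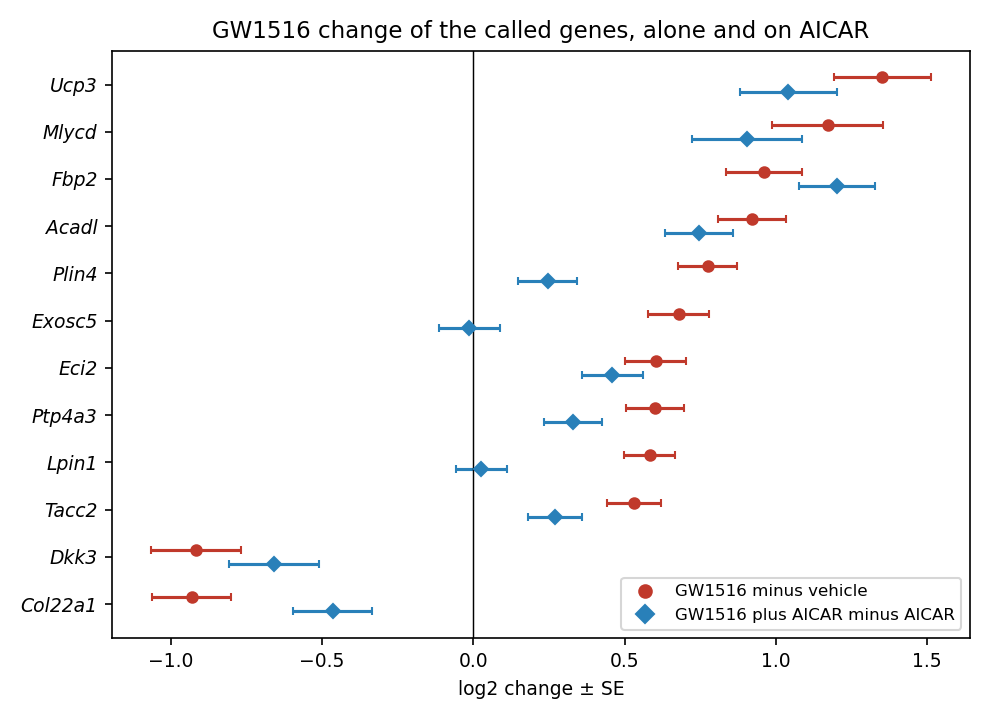
Changes of the 12 called genes with GW1516 alone and on AICAR. Each row is a gene, the x axis is the log2 change ± SE, red circles are GW1516 minus vehicle and blue diamonds are GW1516 plus AICAR minus AICAR (n = 3 against 3 arrays each). In 11 genes both changes have the same sign, and for Exosc5 and Lpin1 the change on AICAR lies near 0.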

How the data were processed

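Quadriceps RNA, pooled from 3 mice for each array, was measured on 12 Affymetrix mouse arrays. The deposited intensity values are MAS5 signals on a linear scale, per the submitters' processing notes, with each array at a trimmed mean of 200 (2% off each end) when computed from the table. No version of MAS5 is given in the sources used here.

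Gene symbols came from the platform annotation of 2016. The table holds 45101 probe sets, and without the 64 controls 34945 had 1 symbol, 932 had several and 9160 had none here. By gene ID, 34741 were found in the RefSeq gene table, and 0 symbols changed. Signals below 1 were set to 1 (3531 of 540444), log2 was taken, and arrays were not normalized further. The lowest 40% of probe sets by mean log2 signal over all arrays (below 28.2) were left out, and the brightest probe set stood for each gene, leaving 12771 genes.

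Comparisons used limma 3.58.1 (R 4.3.3), fitted to all 12 arrays with group means, a variance trend, and 8 residual and 5.91 prior degrees of freedom. Tests were two-sided, with Benjamini-Hochberg adjustment over the 12771 genes. The comparisons were GW1516 minus vehicle, GW1516 plus AICAR minus AICAR, and their difference. The code was tested on simulated data. Promoters came from RefSeq, and plots were made with matplotlib 3.10.9 (Python 3.11.15).

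The genes named were all called, the next 10 per direction by p with no overlap between groups, the PPAR targets and cofactors, up to 4 members of smallest p in each other list, and those with the widest deviation of GW1516 array 2. The members and lists were chosen with earlier results of these data known. Alternatives were other normalizations, filters, summaries of probe sets and variance models, array weights, the replicate number as a block, and each array left out in turn.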

Additional observations from a re-analysis of the deposited data

How the results depend on the processing

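GW1516 against vehicle gave 12 called genes. It called 7 when probe sets of each gene were averaged, 2 in a fit of the 6 arrays compared and 0 without the variance trend, where 1054 genes had an unadjusted p under 0.05. It ranged from 0 to 41 with 1 array left out, and from 9 to 17 under the other alternatives. GW1516 plus AICAR against AICAR gave 4. The count was 2 with quantile normalization, median centring, no filter on dim probe sets or averaged probe sets, and 1 with all probe sets as features. It ranged from 1 to 10 with 1 array left out. The interaction gave 0 by limma in the reported fit, with 848 genes at an unadjusted p under 0.05, and 0 under every alternative in which it was fitted. Of 294 comparisons of the 12 called genes with an alternative, 293 kept the sign, and the fits that left out 1 array could not change it. The exception was a second probe set of Col22a1, at 0.093. Of 798 list medians, 37 moved and 46 changed sign, among them fast-twitch genes, at -0.01 with quantile normalization.

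The replicate numbers did not pair the arrays. Correlations between same-numbered GW1516 and vehicle arrays, as deviations from group means, were -0.013, 0.035 and -0.036. With the number as a block 11 genes were called for GW1516 against vehicle, 10 of them shared, and 1 for GW1516 plus AICAR against AICAR. Dim probe sets limited what could be read of Acot1, Fgf21 and Myh7, which fell below the filter.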

Other observations

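Oxidant defence genes lay mostly above 0 in GW1516 muscle. Of 19 tested, 14 were above 0, against 47.1% of all genes, and 0 were called by limma. At an unadjusted p under 0.05, 7 were higher and 2 lower. The median of 0.27 was 0.12 without GW1516 array 2. When GW1516 was added to AICAR, the median was -0.045 and 7 of 19 lay above 0. Sod1, the cytosolic superoxide dismutase, had signals of 5087, 5584 and 5110.4 on the GW1516 arrays, against 4196, 4128 and 4607 on the vehicle arrays. Gstm1, a glutathione transferase, had 3192, 3364 and 2929 on the GW1516 arrays, against 2707, 2519 and 2331 on the vehicle arrays. For both genes all GW1516 arrays lay above all vehicle arrays and neither was called, and other probe sets of Sod1 and Gstm1 reached -0.09 and -0.01.

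Chrna1, the alpha subunit of the acetylcholine receptor, had 277, 179.5 and 206 on the GW1516 arrays, against 310.1, 338 and 336 on the vehicle arrays, a difference of -0.59 ± 0.19 (limma, adjusted p = 0.416). Oxct1, which starts the use of ketone bodies, had 6896, 4706 and 5478 on the GW1516 arrays, against 7399, 7350.0 and 7130.1 on the vehicle arrays, a difference of -0.37 ± 0.11 (adjusted p = 0.311). Neither was called, and in both genes all GW1516 arrays lay below all vehicle arrays and array 2 was the lowest. Of 18 macrophage and leukocyte markers 4 lay above 0, against 47.1% of all genes, with a median of -0.23. Without GW1516 array 2, 7 of the 18 lay above 0 and the median was -0.03. The summed signal of the 23 markers named on the array was 5102, 3726 and 6352 on GW1516 arrays 1 to 3. On vehicle arrays 1 to 3 it was 6648, 4993 and 5548. Cd14, an endotoxin coreceptor on that list, went the other way, with 76, 80.8 and 90.8 on the GW1516 arrays, against 43.3, 47.1 and 58.5 on the vehicle arrays.

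Of the genes over 1 log2 unit from the other GW1516 arrays on array 2, 311 lay above and 512 below. They were dim: their median vehicle signals were 56.5 and 54.8, beside 195.4 for all genes tested.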
